A study of Mus musculus with 7 samples.

Results

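The replicative helicase is the machine that unwinds DNA ahead of the replication fork. The transcripts described are those of 10 of its genes among the 24537 rows of the deposited table: Mcm2, Mcm3, Mcm4, Mcm5, Mcm6 and Mcm7, which encode the 6 subunits of the ring, Cdc45, Gins1 and Gins2, which encode parts that switch the ring on, and Mcm10. They were found by gene symbol, and every one of the 10 had a row under its own symbol and passed the filter on low values (at least 1 FPKM in at least 2 of 7 libraries). FPKM is a count of fragments corrected for transcript length and for the depth of the library. RNA was sequenced from CD45 intermediate, CX3CR1-positive microglia that were sorted from C57BL/6 mice bearing the 005 glioma, a mouse glioblastoma model, at day 35 after implantation. All mice carried the tumour. The groups were control IgG (2 libraries), anti-CTLA4, an antibody to a T cell checkpoint receptor (2 libraries), and anti-CTLA4 with depletion of CD4 T cells (3 libraries), called CD4 depletion below. The age and sex of the mice, and whether a library came from 1 animal or a pool, are not given in the sources used here, so the p-values measure the spread between libraries, which may be technical.

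In G1 phase the origin recognition complex, Cdc6 and Cdt1 load the MCM ring onto DNA in an inactive form, a step called licensing. At the start of S phase the kinases Cdc7-Dbf4 and Cdk2 bring Cdc45 and the GINS complex to the ring, which gives the active helicase, and Mcm10 helps to open the DNA. Transcription of these genes is known to rise with entry into the cell cycle through E2F-DP transcription factors, and resting microglia divide little. The study's design asks how microglia differ under the checkpoint antibody alone and when CD4 T cells are removed as well.

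Reads in genes numbered 49900000 to 61800000 a library, as worked out from the steps between low FPKM values, and 11348 to 12401 genes reached 1 FPKM. A helicase gene was covered by 186 to 13309 reads in a library. The labels of 2 libraries conflict: sheet numbers 29 and 30 stand in the columns that say anti-CTLA4, but the descriptions of these samples hold 10 and 11, and in the header's command 29 and 30 belong to names that read as knockouts of the interferon-gamma receptor. Both are referred to by their column names, as labelled anti-CTLA4, and every direction involving them depends on that reading. Ifngr1, the receptor's first chain, stood at 204 and 271 FPKM in them and at 107 to 143 FPKM in the others, a sum over exons that cannot check the label. The microglial marker Cx3cr1 stood at 211 to 752 FPKM in all 7 libraries. Replicate 1 of CD4 depletion stood apart, with a monocyte list (12 genes) summing to 1373 FPKM against 54.8 to 96.4 FPKM in the other 6 libraries. On the Y chromosome, Ddx3y, Eif2s3y and Uty stood higher in all 3 CD4 depletion libraries than in any other (Eif2s3y at 4.34 to 6.86 against 0.335 to 1.06 FPKM), while Kdm5d overlapped between the groups. Xist, on the X chromosome, stood at 2.42 to 3.42 FPKM with CD4 depletion, which overlapped the 2.16 and 2.48 FPKM of IgG. It stood at 3.85 and 6.08 FPKM in the libraries labelled anti-CTLA4. The sex of the mice is not given, so sex and depletion cannot be told apart.

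Helicase genes were lower in the libraries labelled anti-CTLA4 than with control IgG, and higher with CD4 depletion than in those same libraries. Of the 10 genes, 7 fell and 3 did not pass in the first comparison (limma, adjusted p threshold 0.05 over all genes), where 28.8% of the 13028 tested genes were called lower, 9.29% higher and 38.0% in either direction. The median log2 change of the 10 genes was -1.24, against -0.31 over all tested genes. In the second comparison 9 rose and 1 did not pass, where 22.8% of tested genes were called higher, 6.59% lower and 29.4% in either direction, with a median of 1.25 against 0.27 over all tested genes. The 2 comparisons share the libraries labelled anti-CTLA4, so they are not independent of each other. Between CD4 depletion and IgG, 0 of 10 passed by limma, 0 were below 0.05 without adjustment, and 0.00% of tested genes were called.

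**Figure D1:**
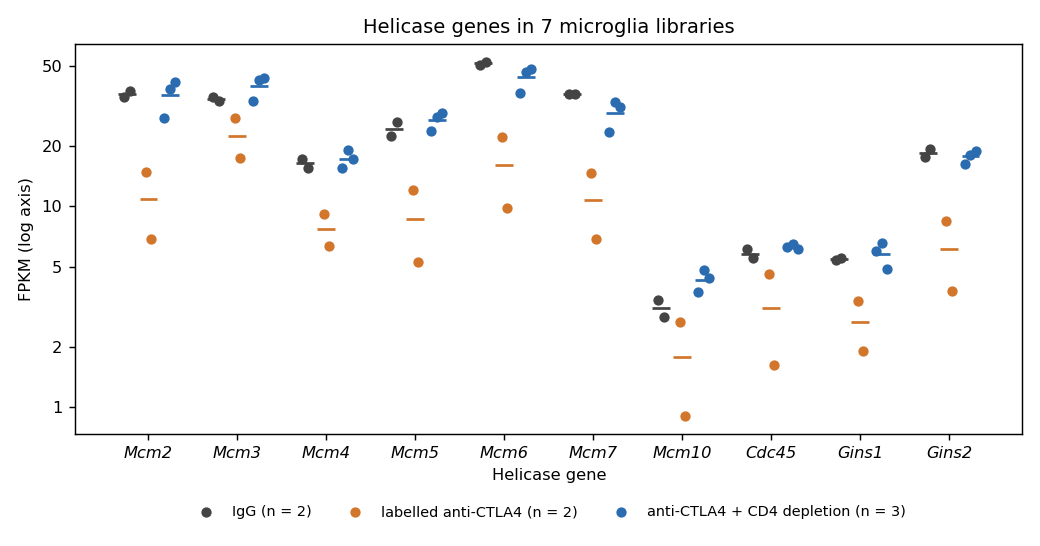
FPKM of the 10 helicase genes in each of the 7 libraries, on a log axis; points are libraries, short lines are group means. For every gene both libraries labelled anti-CTLA4 lie below all libraries of the other groups, and the second lies below the first.

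For each of the 10 genes, both libraries labelled anti-CTLA4 lay below both IgG libraries, and the groups did not overlap for 76.9% of all tested genes, in one direction or the other. They also lay below all 3 CD4 depletion libraries for each gene, where 60.5% of tested genes did not overlap. Replicate 2 of the libraries labelled anti-CTLA4 was the lowest of the 7 for each of the 10 genes, with a summed helicase level of 60.9 FPKM against 119 FPKM in replicate 1. The sums in IgG were 229 and 235 FPKM, and those with CD4 depletion were 193, 243 and 245 FPKM.

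Among the ring subunits, Mcm2 carries, with its partners, the gate through which DNA enters. Mcm2 stood at 35.0 and 37.6 FPKM in IgG, at 14.8 and 6.91 FPKM in the libraries labelled anti-CTLA4, and at 27.5, 38.5 and 41.8 FPKM with CD4 depletion. Its libraries with CD4 depletion spanned those of IgG, with replicate 1 the lowest of the 3. The log2 change on the FPKM + 1 scale was -1.74 (SE 0.33, limma adjusted p = 0.0118) from IgG to the libraries labelled anti-CTLA4 and 1.70 (SE 0.31, limma adjusted p = 0.0142) from these to CD4 depletion.

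Mcm5, which forms that gate with Mcm2, followed a like course. Its levels were 22.3 and 26.2 FPKM in IgG, 12.1 and 5.285 FPKM in the libraries labelled anti-CTLA4, and 23.8, 27.8 and 29.2 FPKM with CD4 depletion, where 2 of 3 libraries lay above both of IgG. It fell by 1.48 on the log2 scale (SE 0.32, limma adjusted p = 0.0148) and rose by 1.62 (SE 0.29, limma adjusted p = 0.0144).

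Mcm6, a subunit of the catalytic core with Mcm4 and Mcm7, had the highest level of the 10 genes in IgG. It stood at 50.4 and 52.4 FPKM in IgG, at 22.1 and 9.83 FPKM in the libraries labelled anti-CTLA4, and at 36.8, 46.7 and 48.1 FPKM with CD4 depletion. Here the 3 groups did not overlap at all, since each CD4 depletion library was below each IgG library. Mcm6 fell by 1.73 (SE 0.33, limma adjusted p = 0.0118) and rose by 1.49 (SE 0.30, limma adjusted p = 0.0166).

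Mcm7 showed the same order of groups. It stood at 36.1 and 36.4 FPKM in IgG, at 14.6 and 6.91 FPKM in the libraries labelled anti-CTLA4, and at 23.4, 33.0 and 31.1 FPKM with CD4 depletion, again with no overlap between any 2 groups. It fell by 1.75 on the log2 scale (SE 0.32, limma adjusted p = 0.0110), the largest change of the 10 genes in this comparison, and it rose by 1.43 (SE 0.29, limma adjusted p = 0.0166). The difference between CD4 depletion and IgG did not pass for Mcm7 (-0.32, 95% interval -0.99 to 0.36, limma adjusted p = 0.774) or Mcm6 (-0.23, 95% interval -0.94 to 0.48, limma adjusted p = 0.836).

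Mcm4 had the lowest level of the ring subunits in IgG. It was at 17.3 and 15.5 FPKM in IgG, at 9.11 and 6.335 FPKM in the libraries labelled anti-CTLA4, and at 15.4, 19.006 and 17.2 FPKM with CD4 depletion, which overlapped IgG. Mcm4 fell by 1.01 (SE 0.20, limma adjusted p = 0.0123) and rose by 1.08 (SE 0.18, limma adjusted p = 0.0133), with the smallest standard errors of the 10 genes.

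Mcm3, which stands next to Mcm5 in the ring, differed less than the other ring subunits. It stood at 35.1 and 33.5 FPKM in IgG, at 27.5 and 17.4 FPKM in the libraries labelled anti-CTLA4, and at 33.4, 42.4 and 43.7 FPKM with CD4 depletion. The groups did not overlap between IgG and the libraries labelled anti-CTLA4, yet the change of -0.62 (SE 0.24, limma adjusted p = 0.0732) did not pass. From these libraries to CD4 depletion Mcm3 rose by 0.83 (SE 0.22, limma adjusted p = 0.03055).

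**Figure D2:**
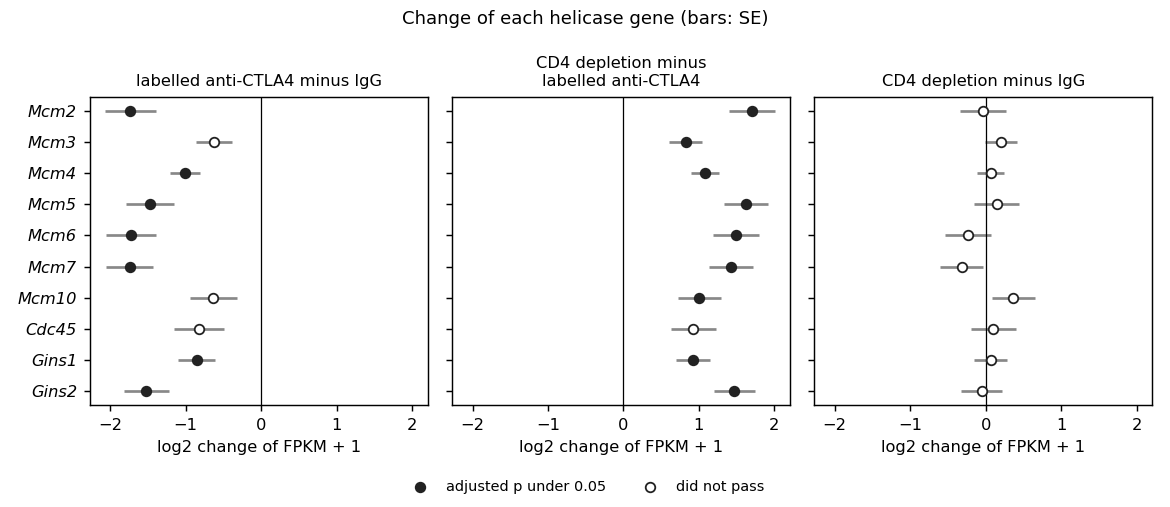
Log2 change of FPKM + 1 with its standard error for each of the 10 genes in the 3 comparisons; filled points passed an adjusted p of 0.05. In the first panel all 10 changes lie between -1.75 and -0.62, in the second between 0.83 and 1.70, and in the third between -0.32 and 0.37.

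The 6 ring subunits are present in equal numbers in the protein complex, and their transcripts were compared per length within a library, a ratio that is unchanged when all values of a library are multiplied by 1 factor (quantile normalization can change it). Mcm3 was singled out after its values were seen. It made up 17.9% and 16.6% of the summed Mcm2 to Mcm7 FPKM in IgG, 27.5% and 33.0% in the libraries labelled anti-CTLA4, and 20.8%, 20.4% and 20.7% with CD4 depletion. The share of Mcm3 was thus highest in the libraries where the sum was lowest, and no 2 groups overlapped. The log2 ratio of Mcm3 to the geometric mean of the other 5 subunits was 0.22 and 0.11 in IgG, 0.98 and 1.33 in the libraries labelled anti-CTLA4, and 0.45, 0.43 and 0.47 with CD4 depletion. A two-sided exact permutation test gave p = 0.333 for the libraries labelled anti-CTLA4 against IgG and p = 0.2 for CD4 depletion against either group. These are the smallest values the designs allow, so this difference cannot reach 0.05.

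The share of Mcm6 moved the other way, from 25.7% and 26.0% in IgG to 22.1% and 18.7% in the libraries labelled anti-CTLA4, and it was 23.0%, 22.5% and 22.8% with CD4 depletion. Mcm7 made up 18.4% and 18.1% in IgG, 14.6% and 13.1% in the libraries labelled anti-CTLA4, and 14.6%, 15.9% and 14.7% with CD4 depletion. For Mcm7 the shares with CD4 depletion lay nearer to the libraries labelled anti-CTLA4 than to IgG. As a result Mcm6 ranked first of the 10 genes in both IgG and all 3 CD4 depletion libraries, and Mcm3 ranked first in both libraries labelled anti-CTLA4.

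**Figure D3:**
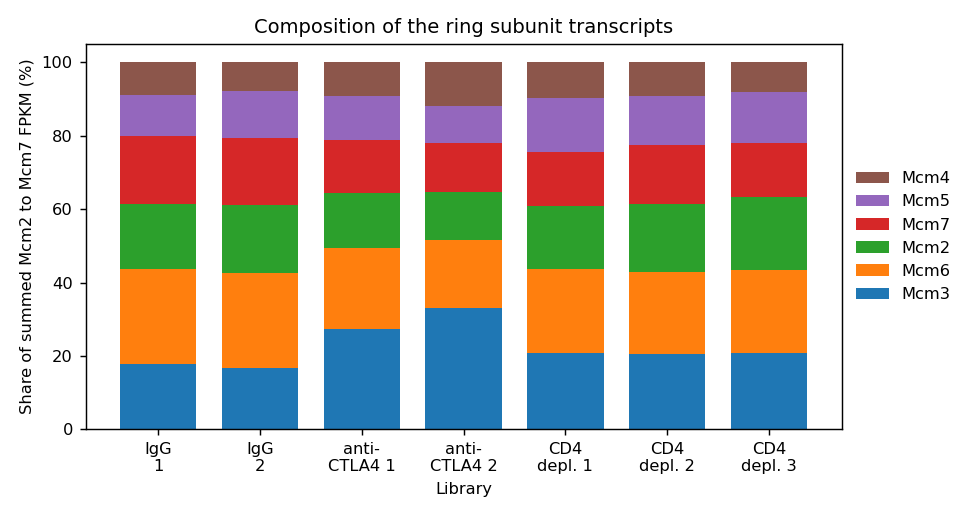
Share of each ring subunit in the summed FPKM of Mcm2 to Mcm7, in percent, by library. The lowest segment, Mcm3, takes 16.6% to 17.9% in IgG, 27.5% to 33.0% in the libraries labelled anti-CTLA4 and 20.4% to 20.8% with CD4 depletion.

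In IgG, the order of the mean levels was Mcm6 (51.4 ± 1.42 FPKM, SD, n = 2), Mcm2 (36.3 ± 1.85), Mcm7 (36.2 ± 0.24), Mcm3 (34.3 ± 1.12), Mcm5 (24.3 ± 2.76), Gins2 (18.4 ± 1.11), Mcm4 (16.4 ± 1.25), Cdc45 (5.82 ± 0.41), Gins1 (5.47 ± 0.064) and Mcm10 (3.12 ± 0.43). Mcm2 and Mcm7 overlapped, and Cdc45 and Gins1 differed by less than the SD of Cdc45. The other neighbours in this order did not overlap between the 2 libraries. Mcm10 ranked last in each of the 7 libraries.

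The parts that switch the ring on were expressed at lower levels per length than most of the ring. Cdc45, which recruits polymerases to the fork as part of the active helicase, stood at 6.11 and 5.53 FPKM in IgG, at 4.61 and 1.63 FPKM in the libraries labelled anti-CTLA4, and at 6.30, 6.48 and 6.15 FPKM with CD4 depletion. Each CD4 depletion library was above each IgG library. Cdc45 passed in no comparison: its change was -0.83 (SE 0.33, limma adjusted p = 0.0812) in the first and 0.93 (SE 0.30, limma adjusted p = 0.0526) in the second. By ratio, the libraries labelled anti-CTLA4 differed from each other most for this gene and for Mcm10.

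GINS is a complex of 4 subunits, and Gins3 and Gins4 complete it although they are not among the 10 genes. Gins2 stood at 17.6 and 19.2 FPKM in IgG, at 8.49 and 3.80 FPKM in the libraries labelled anti-CTLA4, and at 16.3, 18.1 and 18.8 FPKM with CD4 depletion, which overlapped IgG. Gins2 fell by 1.52 (SE 0.30, limma adjusted p = 0.0119) and rose by 1.47 (SE 0.27, limma adjusted p = 0.0146), within the range of the ring subunits. Gins1 stood at 5.42 and 5.51 FPKM in IgG, at 3.39 and 1.91 FPKM in the libraries labelled anti-CTLA4, and at 6.03, 6.56 and 4.86 FPKM with CD4 depletion, so that replicate 3 was the lowest of the last group. Gins1 fell by 0.85 (SE 0.24, limma adjusted p = 0.0307) and rose by 0.92 (SE 0.22, limma adjusted p = 0.0247).

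The other GINS subunits differed less. Gins4 stood at 25.9 and 21.8 FPKM in IgG, at 16.1 and 12.9 FPKM in the libraries labelled anti-CTLA4, and at 19.4, 19.6 and 25.9 FPKM with CD4 depletion, and fell by 0.69 in the first comparison (SE 0.20, limma adjusted p = 0.0352). Gins3 stood at 2.72 and 3.01 FPKM in IgG, at 2.27 and 2.285 FPKM in the libraries labelled anti-CTLA4, and at 3.06, 3.355 and 4.28 FPKM with CD4 depletion, and did not pass (-0.24, SE 0.20, limma adjusted p = 0.364). In the second comparison neither passed, with changes of 0.54 for Gins4 (limma adjusted p = 0.0633) and 0.47 for Gins3 (limma adjusted p = 0.0860). Thus the 4 transcripts of 1 complex ranged from -1.52 to -0.24 in the first comparison. The ratio of Gins2 to Gins1 FPKM was 3.25 and 3.48 in IgG, 2.501 and 1.98 in the libraries labelled anti-CTLA4, and 2.70, 2.76 and 3.86 with CD4 depletion.

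Mcm10, despite its name no relative of the ring subunits, acts when origins fire. It stood at 3.43 and 2.82 FPKM in IgG, at 2.67 and 0.907 FPKM in the libraries labelled anti-CTLA4, and at 3.73, 4.85 and 4.39 FPKM with CD4 depletion. Each CD4 depletion library was above each IgG library, with a difference of 0.37 (95% interval -0.30 to 1.04, limma adjusted p = 0.743) that did not pass. Its change in the first comparison did not pass (-0.64, SE 0.31, limma adjusted p = 0.142), and it rose by 1.00 (SE 0.29, limma adjusted p = 0.0381) in the second. Between CD4 depletion and IgG the libraries did not overlap for 4 of the 10 genes, lower for Mcm6 and Mcm7 and higher for Cdc45 and Mcm10, beside 27.2% of all tested genes.

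The number called depended on which libraries were kept. In the first 2 comparisons, fits that left 1 library in a group called fewer genes over the whole table. Helicase calls fell in some of these fits and rose in others. Of the libraries left out, those labelled anti-CTLA4 moved the helicase median most. In the first comparison the 7 falls became 0 when either IgG library was left out (medians -1.26 without replicate 1 and -1.22 without replicate 2). They became 0 (median -0.86) when replicate 2 of the libraries labelled anti-CTLA4 was left out, and 10 (median -1.69) when replicate 1 was. In the second, leaving out replicate 2 of the libraries labelled anti-CTLA4 gave 0 rises (median 0.89), and leaving out replicate 1 gave 10 (median 1.70). Leaving out 1 CD4 depletion library gave 9 rises for replicate 1 (median 1.34), 4 for replicate 2 (median 1.17) and 3 for replicate 3 (median 1.22). Over all 13028 tested genes 4133, 979 and 668 were called higher in these 3 fits, against 2969 with all libraries. Of the 4 scaling alternatives, median-of-ratios scaling moved the median of all tested genes from -0.31 to -0.0096 and left 6 helicase genes lower, and the helicase median relative to it went from -0.93 to -0.89. Calls over all genes were then 2132 higher and 2050 lower, against 1210 and 3747, and in the second comparison 1455 higher and 1648 lower, against 2969 and 858, where 6 helicase genes rose. The direction of each of the 10 genes in the first 2 comparisons was the same under all 4 scalings.

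Promoter sequences of 7 of the 10 genes were found in RefSeq windows on GRCm38.p6, the same assembly as mm10, from 250 bases before the start site to 50 bases from it. Mcm4, Gins1 and Gins2 were not matched. Motifs known from promoters of cell cycle genes were searched on both strands, with overlapping matches counted: an E2F-like motif, spelled TTTCCCGC, TTTGGCGC, TTTCGCGC or TTTGCCGC, and the NF-Y core CCAAT, which reads ATTGG on the other strand. E2F-like matches lay in the first window of 4 of the 7 genes, Mcm3, Mcm5, Mcm6 and Mcm7, while 2.26% of all 32851 windows of this length hold one. CCAAT lay in all 7, and 37.4% of all windows hold it. The stretches below show genes with and without an E2F-like match, as capitals, together with CCAAT, also in capitals. Positions are counted from the start site as 0.
Mcm6, chr1:128359706-128359885, minus strand, positions -180 to -1: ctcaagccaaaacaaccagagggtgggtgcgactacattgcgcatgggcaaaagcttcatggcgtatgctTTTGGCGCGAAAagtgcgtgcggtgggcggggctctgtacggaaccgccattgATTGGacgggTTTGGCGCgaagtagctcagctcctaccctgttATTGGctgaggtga
Mcm5, chr8:75109329-75109508, plus strand, positions -180 to -1: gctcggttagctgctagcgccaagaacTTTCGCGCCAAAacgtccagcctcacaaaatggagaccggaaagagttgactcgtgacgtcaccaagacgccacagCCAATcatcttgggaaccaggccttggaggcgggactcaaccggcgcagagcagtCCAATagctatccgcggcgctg
Mcm3, chr1:20820266-20820295, minus strand, positions 17 to 46: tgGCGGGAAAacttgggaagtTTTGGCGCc
Mcm2, chr6:88898781-88898960, minus strand, positions -180 to -1: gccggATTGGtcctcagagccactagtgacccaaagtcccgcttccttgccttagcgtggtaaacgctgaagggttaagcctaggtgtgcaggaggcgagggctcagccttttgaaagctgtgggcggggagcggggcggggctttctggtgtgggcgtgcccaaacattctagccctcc
Mcm10, chr2:5012792-5012971, minus strand, positions -180 to -1: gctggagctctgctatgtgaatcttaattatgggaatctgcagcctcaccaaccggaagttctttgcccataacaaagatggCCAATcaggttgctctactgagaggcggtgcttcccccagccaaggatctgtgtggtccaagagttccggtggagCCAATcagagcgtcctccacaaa

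In Mcm6 and Mcm5 a pair of overlapping E2F-like matches forms 1 block of capitals, at -110 to -99 and at -153 to -142, and Mcm6 has a further match at -47 to -40. The matches of Mcm7 lay at -165 to -158 and 16 to 23, and a further RefSeq window of this gene held none. Those of Mcm3 lay past the RefSeq start site but before the start in the deposited table, which lies 99 bases further along the gene. In the first comparison the genes with a match had changes of -1.75 (Mcm7), -1.73 (Mcm6), -1.48 (Mcm5) and -0.62 (Mcm3). Those without one in this window had -1.74 (Mcm2), -0.83 (Cdc45) and -0.64 (Mcm10). A link between matches and changes was not tested. The RefSeq start of Mcm3 lay 99 bases, that of Cdc45 333 bases and that of Mcm7 21 bases from the start in the deposited table.

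**Figure D4:**
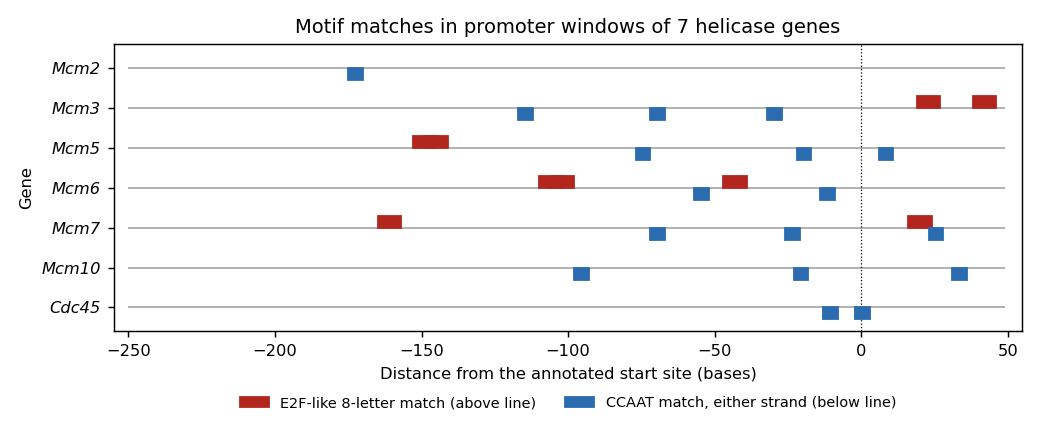
Positions of E2F-like and CCAAT matches in the promoter windows of 7 helicase genes, in bases from the annotated start site; each grey line is a window of 300 bases. The 4 genes with E2F-like matches are Mcm3, Mcm5, Mcm6 and Mcm7, and each of the 7 genes has at least 1 CCAAT match.

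The coordinates of the 10 genes in the deposited table (mm10) showed which values could hold reads of another gene. Mcm7, on chromosome 5 from 138164589 to 138171862, holds the hairpins of Mir25, Mir93 and Mir106b, which were listed at 0 to 0.516 FPKM. Gins2, on chromosome 8 from 120581266 to 120589075, overlaps 118 bases of Gse1 on the opposite strand, and counting used both strands. Gse1 stood at 1.81 to 2.42 FPKM in the 7 libraries, and its lowest value was that of replicate 1 of the libraries labelled anti-CTLA4. The other 8 genes overlapped no row of the table.

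Around the helicase, genes of the same process were counted by lists that are not independent of earlier results. Of 10 licensing genes, 3 fell and none rose in the first comparison (median -0.61) and 4 rose in the second (median 0.68). Over all tested genes 28.8% were lower in the first comparison (median -0.31) and 22.8% higher in the second (median 0.27), so the share of licensing genes that fell was near that of all genes. Orc6, a subunit of the origin recognition complex, fell by 1.23 (SE 0.22, limma adjusted p = 0.0107) and rose by 1.36. Cdc6, a loader of the ring, stood at 3.91 and 3.38 FPKM in IgG, at 1.57 and 0.628 FPKM in the libraries labelled anti-CTLA4, and at 3.39, 4.01 and 4.325 FPKM with CD4 depletion, with changes of -1.18 and 1.26. Cdt1, its partner, did not pass in the first comparison (-0.63, limma adjusted p = 0.0748) and rose by 1.02 in the second. Gmnn, which encodes the Cdt1 inhibitor geminin, passed in neither (-0.72 and 0.76).

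Of the 7 tested genes that fire origins, 3 fell (median -0.63) and 4 rose (median 0.61), beside the same 28.8% and 22.8% of all tested genes. Cdc7, the kinase that phosphorylates the ring, fell by 1.06 (SE 0.18, limma adjusted p = 0.0103) and rose by 1.14 (SE 0.16, limma adjusted p = 0.0120). Topbp1, a scaffold of helicase assembly, fell by 1.17 and rose by 0.86.

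At the fork, 16 of 22 genes fell (median -0.88) and 18 rose (median 1.00). Over all tested genes 28.8% were lower in the first comparison (median -0.31) and 22.8% higher in the second (median 0.27). The same shares stand beside the polymerase and nucleotide lists below. Supt16h, a subunit of the histone chaperone FACT that travels with the helicase, fell by 1.75 (SE 0.20, limma adjusted p = 0.00936) and rose by 1.55. Wdhd1, which ties the helicase to polymerase alpha, fell by 1.12 and rose by 1.32. Tipin, of the fork protection complex, fell by 1.20 and rose by 1.34. Of 12 polymerase and primase subunits, 8 fell (median -0.91) and 10 rose (median 0.97), with Prim1, the catalytic primase subunit, at -1.60 and 1.82. Of 7 genes of nucleotide supply, 5 fell (median -1.05) and 6 rose (median 0.94).

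The ring's close relatives were split. Mcm8, which works with Mcm9 in DNA repair, fell by 1.03 (SE 0.21, limma adjusted p = 0.0127) and rose by 1.02 (SE 0.19, limma adjusted p = 0.0149), from levels of 1.99 and 1.66 FPKM in IgG to 0.564 and 0.219 FPKM. Mcm9 (-0.23 and 0.19) and Mcmbp, an MCM-binding protein (-0.20 and 0.16), passed in neither comparison, and Mcmdc2 was not tested, at 0.059 FPKM or less in each library.

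Among 18 genes of the E2F and RB network, 4 fell (median -0.29) and 7 rose (median 0.55). The share that fell was below the 28.8% of all tested genes, whose median was -0.31. In the second comparison the share that rose was above the 22.8% of all tested genes, whose median was 0.27. Tfdp1, the DP partner of E2F proteins, stood at 30.9 and 38.2 FPKM in IgG, at 13.4 and 9.21 FPKM in the libraries labelled anti-CTLA4, and at 26.2, 34.8 and 29.6 FPKM with CD4 depletion, and fell by 1.54 (SE 0.23, limma adjusted p = 0.00936), then rose by 1.35. E2f1 was at -0.12 (limma adjusted p = 0.773) and 0.55 (limma adjusted p = 0.160) and did not pass. Of 20 mitosis genes, 3 fell (median -0.72) and 13 rose (median 1.15), among them Kif11, a spindle motor (-1.36 and 1.20). The share of mitosis genes called lower was below the 28.8% of all tested genes, and the share that rose was above their 22.8%. Yet all 20 mitosis genes had a negative change in the first comparison (-1.36 to -0.40), as had 8634 of all 13028 tested genes. In the second all 20 had a positive change, as had 8805 of all tested genes. In the comparison of CD4 depletion with IgG, 0 genes of these lists passed by limma, and 0 were below 0.05 without adjustment.

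The helicase mean lay above the mitosis mean in all libraries, by 0.70 and 0.94 on the log2(FPKM + 1) scale in IgG, by 0.32 and 0.48 in the libraries labelled anti-CTLA4, and by 0.50, 0.58 and 0.60 with CD4 depletion. On this scale the gap was smallest in the libraries labelled anti-CTLA4, without overlap. The 1 added to FPKM narrows gaps most where values are low, as in these libraries. The lack of overlap therefore depends on this scale and does not show that helicase genes fell more than mitosis genes.

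The 10 tested genes outside the helicase with the most similar pattern were ranked by Pearson's r with the helicase mean over the 7 libraries, among 7890 genes with a mean of at least 5 FPKM. They were Psat1, an enzyme of serine synthesis (r = 0.998), Chpf (0.998), Pbk (0.997), the proteasome subunit gene Psmb4 (0.997), Rrm1, a subunit of ribonucleotide reductase (0.997), the PCNA partner Pclaf (0.996), the condensin subunit gene Ncapd2 (0.996), Atp5g3 (0.996), Nhp2 (0.995) and Rpa2, of the single-strand DNA binding complex (0.994). These r values are a description over 7 libraries whose spread is mostly that of the 2 libraries labelled anti-CTLA4. The helicase genes themselves had r of 0.923 (Mcm10) to 0.994 (Gins2) with the mean of the other 9.

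Markers of tumour and oligodendrocyte precursor-like cells moved in the same direction as the helicase in the first 2 comparisons. In bulk RNA, fewer dividing cells and less RNA of the helicase genes per cell cannot be told apart. Of 20 genes of tumour and oligodendrocyte precursor-like cells, 19 fell in the first comparison (median -2.83) and 17 rose in the second (median 1.91). Over all tested genes 28.8% were called lower in the first and 22.8% higher in the second. Between CD4 depletion and IgG, 17 of the 20 had a negative change (median -0.95), against a helicase median of 0.07, and 0 passed by limma. Without adjustment, 6 of the 20 were below 0.05 by limma, beside 851 of all 13028 tested genes. Their summed level was 953 and 1307 FPKM in IgG, 124 and 52.0 FPKM in the libraries labelled anti-CTLA4, and 239, 798 and 615 FPKM with CD4 depletion, and none of the 20 was at 0 in every library of a group. The list was thus lowest in the same 2 libraries as the helicase. Of 15 homeostatic microglia genes, 4 rose and then 4 fell (medians 0.84 and -0.95). Beside them, 9.29% of all tested genes were higher in the first comparison and 6.59% lower in the second. The sums of the homeostatic list were 4706 to 5940, 8577 to 12904 and 4006 to 6636 FPKM in the 3 groups. The part of these cells in the helicase result was not tested.

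Within the CD4 depletion group, replicate 1 was the lowest for both the tumour list and the helicase. In it the tumour list mean was 3.03 on the log2(FPKM + 1) scale, against 4.27 and 3.91 in replicates 2 and 3, while the helicase mean was 4.05 against 4.32 and 4.28. Summed helicase FPKM was 24.0% and 17.96% of the summed tumour list in IgG, 96.2% and 117% in the libraries labelled anti-CTLA4, and 80.6%, 30.5% and 39.9% with CD4 depletion. Replicate 1 of CD4 depletion was therefore nearer to the libraries labelled anti-CTLA4 in this ratio and nearer to its own group in helicase level. That library also held the monocyte list at 1373 FPKM and a neutrophil list (8 genes) at 519 FPKM, against 35.5 to 178 FPKM in the others.

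Lists of other cell types were read beside the helicase. The T cell list (11 genes with a row) summed to 4.175 to 6.665 FPKM in the 7 libraries, with sums of 4.175 and 4.954 in IgG, 6.19 and 6.32 in the libraries labelled anti-CTLA4, and 4.76 to 6.665 with CD4 depletion, and no gene at 0 in every library of a group. Cd4 itself was at 0.230 and 0.439 FPKM in IgG, at 0.823 and 0.723 FPKM in the libraries labelled anti-CTLA4, and at 0.226, 0.115 and 0.142 FPKM with CD4 depletion, with the lower IgG library close to the highest depleted one. The B cell list (6 genes) summed to 8.001 to 11.6 FPKM in IgG and CD4 depletion and to 22.3 to 23.6 FPKM in the libraries labelled anti-CTLA4, with Pax5 at 0 in all IgG and CD4 depletion libraries. Most of that sum was Cd79b, at 19.5 and 21.3 FPKM in the libraries labelled anti-CTLA4 and at 6.97 to 8.11 FPKM in the others, while Ebf1 was lowest in the libraries labelled anti-CTLA4. The erythroid list (8 genes) summed to 939 and 980 FPKM in the libraries labelled anti-CTLA4 against 47.4 to 576 FPKM in the others, and the endothelial and mural list (10 genes) to 74.8 and 128 against 20.9 to 44.8 FPKM. Vtn made up 87.3 and 39.4 FPKM of the last sum in the libraries labelled anti-CTLA4 and 0.996 to 11.8 FPKM in the others. The part of these cells in the helicase result was not tested.

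**Figure D5:**
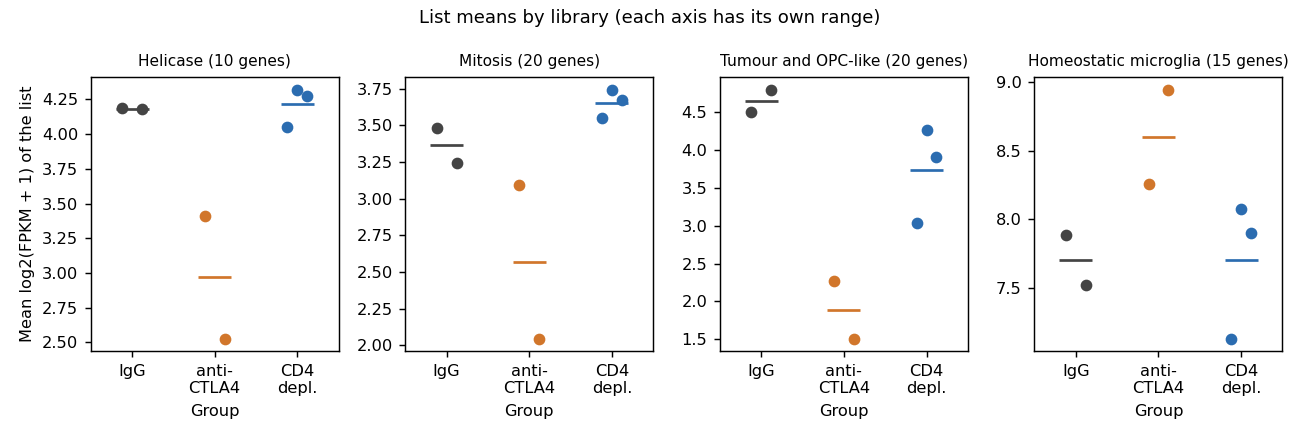
Mean log2(FPKM + 1) of the 10 helicase genes and of the mitosis, tumour and homeostatic microglia lists, by library; points are libraries, lines are group means, and each panel has its own range. The helicase mean was 4.18 to 4.19 in IgG, 3.41 and 2.53 in the libraries labelled anti-CTLA4 and 4.05 to 4.32 with CD4 depletion, and the homeostatic list is highest where the helicase is lowest.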

How the data were processed

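The authors used STAR, HOMER, DESeq2 and genome build mm10, per the submitters' processing notes; tool versions are not given in the sources used here. The authors' FPKM values came, per the file headers, from HOMER counting over exons on both strands, with 1 entry kept per gene, and the deposited table also gives each transcript's length. The header's command names 40 libraries, 33 without a column. Depth was read from low values (transcripts of 200 to 800 nucleotides, up to 20 reads): 100% came within 0.1 of whole reads.

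limma 3.58.1 (R 4.3.3) was run on log2(FPKM + 1), with a mean-variance trend, 1 spread over 3 groups, two-sided tests and Benjamini-Hochberg adjustment over the 13028 genes that reached 1 FPKM in 2 or more libraries. Fold changes on this scale understate low genes. The script was tested on simulated data. The helicase genes, 18 gene lists (213 of 214 genes had a row) and alternatives were chosen with earlier results of these data known. Named genes are all 10 helicase genes, the other MCM and GINS genes, those of smallest p per list (up to 3 were eligible) and the 10 most alike; Cdt1, Gmnn and E2f1 were added after their values were seen. The alternatives were pseudocount, filters, 4 scalings, moderation, a replicate block and leaving out libraries.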

Additional observations from a re-analysis of the deposited data

How the results depend on the processing

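No helicase gene changed direction in the first 2 comparisons under any alternative run. The number called lower in the first comparison, of anti-CTLA4 with IgG (7), was 6 to 10 under settings that kept all libraries, and 0 to 10 when 1 library was left out, with medians from -1.69 to -0.86. The number higher with CD4 depletion than in those libraries (9) was 6 to 10 under settings that kept all libraries, apart from the replicate block, and 0 to 10 with 1 library left out (medians 0.89 to 1.70). Where 1 library was left in a group, the fit assumes that it varies as the others do. The count over all genes also fell to 0 without IgG replicate 1 or anti-CTLA4 replicate 2, but without IgG replicate 2 it was 235 higher and 440 lower, with 0 helicase genes. The median in the first comparison was -0.90 with median-of-ratios scaling and -2.14 when scaled to the homeostatic list, and that in the second was 2.15 with the latter; the same scaling moved the median of all genes to -1.21 and 1.17. Between CD4 depletion and IgG, 0 passed throughout, with medians from -0.0078 to 0.12 when 1 library was left out. Uncalled differences there changed sign for Mcm2 (0.019 with median-of-ratios scaling, 0.016 without IgG replicate 2, 0.14 without CD4 depletion replicate 1), Mcm4 (-0.0082 without IgG replicate 2, -0.0048 without CD4 depletion replicate 2), Gins2 (0.0048 and 0.0027 without IgG replicate 2 and CD4 depletion replicate 1) and Gins1 (-0.011 without CD4 depletion replicate 2). Their ranges with 1 library left out were -0.15 to 0.14 for Mcm2, -0.0082 to 0.14 for Mcm4, -0.11 to 0.0048 for Gins2 and -0.011 to 0.17 for Gins1. The cause was not tested.

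The labels do not say that a replicate number marks a pair, and same-numbered libraries deviated together at r = -0.125 (IgG and anti-CTLA4), -0.181 and -0.205 (IgG and CD4 depletion) and 0.078 and 0.123 (anti-CTLA4 and CD4 depletion). With the replicate block, 6, 0 and 0 helicase genes passed in the 3 comparisons, while over all genes 597 were higher and 2068 lower in the first and 0 passed in the others; CD4 depletion replicate 3 has no partner and drops out of that fit. With the numbers crossed between IgG and anti-CTLA4, which was added after seeing the data, 6 were lower.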

Other observations

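Mcm4, Mcm7 and Cdc45 each face a neighbour on the opposite strand whose start lies within 1000 bases, and the neighbours' values were read beside theirs. Ap4m1, of an adaptor complex for vesicle traffic, starts 159 bases from Mcm7. It stood at 3.46 and 3.10 FPKM in IgG, at 2.92 and 2.565 FPKM in the libraries labelled anti-CTLA4, and at 2.73, 4.91 and 3.92 FPKM with CD4 depletion, and passed in no comparison (-0.19, limma adjusted p = 0.547, and 0.35, limma adjusted p = 0.254), where Mcm7 had -1.75 and 1.43. Ufd1l, which works in protein degradation, starts 655 bases from Cdc45 and stood at 17.1 to 20.2 FPKM in the 7 libraries (-0.15, limma adjusted p = 0.403, and 0.17, limma adjusted p = 0.338). Prkdc, a DNA repair kinase that starts 466 bases from Mcm4, was at 0.512 to 0.965 FPKM and was not tested. The differences between neighbours were not tested.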
